A study of Mus musculus with 23 samples.

Results

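The mitochondrial ribosomal protein genes are described here as the 78 protein-coding genes, of 55487 gene IDs counted, whose mouse symbol is Mrpl or Mrps followed by a digit. Symbols marked as pseudogenes were dropped, which removed 5 gene IDs, none of which exceeded 1.05 counts per 1000000 counts of the library (CPM) in any library. Of the 78, 51 encode proteins of the large subunit and 27 proteins of the small subunit. By homology, 48 have a bacterial counterpart and 30 are specific to mitochondria. Subunit follows the protein's place in the ribosome and not its symbol, so Mrps30 and Mrps18a are counted with the large subunit. Mrps36, known from another complex (named below), is counted with the small subunit.

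RNA came from hippocampal neurons of C57Bl/6 mouse pups of postnatal day 1, cultured in microfluidic chambers that let axons grow into a compartment of their own. Every culture, controls included, received magnetic nanoparticles (MNPs) at 5 µg/ml. Stretched cultures were held in a magnetic field gradient of 50 T/m from day in vitro 1 to day in vitro 6, and control cultures had a null gradient. RNA was taken from a pure axonal preparation, called axon here, or from a preparation labelled total cell culture, called soma here. Somata were sampled in 6 control and 6 stretched libraries, and axons in 5 control and 6 stretched libraries. The labels do not say whether replicates are separate cultures or animals, so p-values measure only the spread between these libraries, which may be technical.

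The mitochondrial ribosome translates the few messenger RNAs made from mitochondrial DNA, which encode membrane subunits of the respiratory chain and of ATP synthase. Its RNA is mitochondrial, but all of its proteins are encoded in the nucleus, made in the cytosol and imported. In neurons, messenger RNAs of nuclear-encoded mitochondrial proteins are also found in axons, where they can be translated close to the organelles they supply.

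The members lie on 17 chromosomes, and the median length of their longest coding transcript is 1302 bases (range 463 to 7300). RefSeq (GRCm38.p6) gave a promoter, from 250 bases before to 50 bases after the transcription start, for 69 of the 78. The letters CCGGAAG, or CTTCCGG on the other strand, which are the core bound by ETS factors such as GABPA (also called NRF-2, a regulator of nuclear-encoded mitochondrial genes), occurred in 26 of the 69 (37.7%). They occurred in promoters of 18.4% of genes tested in somata and of 9.93% of all genes with a promoter. The letters AAGATGGC or GCCATCTT, a core of YY1 sites, occurred in 12 of 69 (17.4%), against 4.8% of genes tested and 3.19% of all genes with a promoter. The palindromic NRF1 motif, searched in its full form, was found in 3 (4.35%, against 2.18% of genes tested), and TATAAA or TTTATA in 5 (7.25%, against 9.03% of genes tested). The letters AAG end the ETS core and begin the YY1 core, so matches to both can overlap.

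Of the members that were lower in stretched somata, these 4 were all that met a filter on the place of the ETS letters. The filter kept 51-base windows around the letters that lay wholly before the start and outside every annotated exon. It thus fixed in advance that the letters lie before the start. Capitals mark the ETS letters, which begin 47, 37, 56 and 53 bases before the start for Mrpl52, Mrpl34, Mrpl43 and Mrpl22. The windows are chr14:54426840-54426890 (plus strand), chr8:71464867-71464917 (plus), chr19:45006470-45006520 (minus) and chr11:58171589-58171639 (plus), written 5′ to 3′ on the gene's strand.
Mrpl52: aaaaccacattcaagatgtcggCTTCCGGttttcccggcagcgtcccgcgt
Mrpl34: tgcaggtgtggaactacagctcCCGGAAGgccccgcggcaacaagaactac
Mrpl43: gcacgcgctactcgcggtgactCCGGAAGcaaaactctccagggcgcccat
Mrpl22: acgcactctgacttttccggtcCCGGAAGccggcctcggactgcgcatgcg
The ETS letters were about as frequent in promoters of members that were lower after stretch (18 of 46, 39.1%) as in those of the other members (8 of 23, 34.8%). A match is a description of the letters and not of a bound site.

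Libraries held 16369153 to 43048953 counts assigned to genes, so a floor of 3 counts corresponds to 0.0697 to 0.183 CPM, which covers counting error only. Soma libraries had counts for 22452 to 24575 genes, and axonal libraries for 4263 to 10242. Of 8 neuronal markers, 4 to 8 had counts in each axonal library, with a summed level of 1283 to 4385 CPM against 5417 to 6827 CPM in somata. Of 8 astrocyte markers, 3 to 8 had counts in axonal libraries, at 3978 to 21496 CPM in sum, and all 8 in somata, at 4771 to 12976 CPM. Of 7 transcripts of cell bodies, dendrites and nuclei, 3 to 7 had counts in axonal libraries. Their sum was 1029 to 3277 CPM there and 1947 to 3346 CPM in somata. The nuclear Neat1 was at 0 in 8 and Miat at 0 in 6 of the 11. Map2, Malat1 and Meg3 had counts in all 11, and Camk2a and Snhg11 in some. Of 5 fibroblast markers, 0 to 5 had counts in axonal libraries, at up to 386 CPM in control and 1110 CPM in stretched axons (126 to 237 CPM in somata). Transcripts that mark other cells or compartments thus had counts in every axonal library, though labelled as pure, and their part in the axonal values was not tested. One library went against its label. On the first principal component of all soma genes tested other than members, which held 40.7% of the variance, control soma 4 lay at 23.8, among the stretched somata (10.4 to 31.8) and away from the other controls (-38.6 to -25.8). On that of the members, which held 76.9%, it lay at 1.14, again within the stretched range (0.97 to 2.17) and apart from the other controls (-2.79 to -1.89). Stretched soma 4 lay with the stretched somata on both (22.8 and 0.97), and whether the label of control soma 4 is right was not tested. The counts of members, groups and lists in somata are therefore given with and without it.

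In somata the mitoribosomal genes were lower in stretched than in control cultures across both subunits. Of 77 tested, 54 fell, 1 rose and 22 did not pass (edgeR quasi-likelihood test, adjusted p under 0.05 over all genes). Of all 15632 genes tested, 25.1% passed, 13.9% lower and 11.2% higher. The median log2 fold change was -0.39 over the members and -0.03 over all genes tested, and 70 of the 77 members had a value below 0. In bulk RNA, fewer cells of a type and less RNA per cell cannot be told apart.

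The members together held a smaller share of the counts in stretched somata. In control somata the share was 0.525%, 0.518%, 0.489%, 0.413%, 0.504% and 0.484% in replicates 1 to 6, a mean of 0.489% ± 0.0405 (SD, n = 6). In stretched somata it was 0.391%, 0.375%, 0.423%, 0.394%, 0.372% and 0.385% in replicates 1, 2, 4, 5, 6 and 8, a mean of 0.390% ± 0.0182 (SD, n = 6). The groups overlapped only through control soma 4 and stretched soma 4, and without control soma 4 the control mean was 0.504% ± 0.0177 (SD, n = 5). The large-subunit genes made up 0.338% ± 0.0286 of control and 0.272% ± 0.0133 of stretched counts, and the small-subunit genes 0.151% ± 0.0122 and 0.118% ± 0.00503 (SD, n = 6 each).

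**Figure D1:**
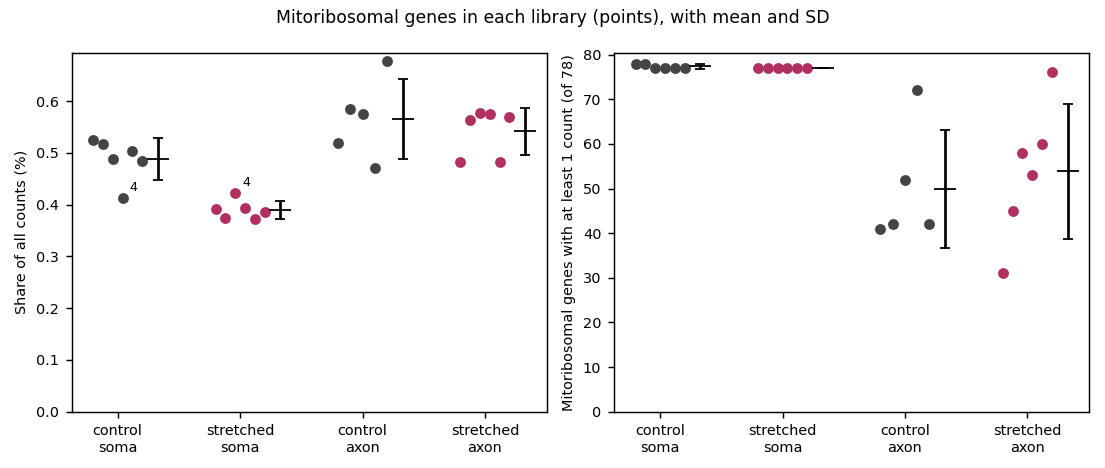
Share of counts from the 78 genes (percent) and number of the 78 with at least 1 count, by group, with a point for each library, and the mean and SD. Stretched somata sit between 0.372% and 0.423% and control somata between 0.413% and 0.525%, while soma libraries had counts for 77 or 78 members and axonal libraries for 31 to 76.

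Large-subunit genes fell in 35 of 50 tested, with a median log2 fold change of -0.37. Small-subunit genes fell in 19 of 27, with a median of -0.41. Genes with a bacterial counterpart fell in 32 of 48, with 1 higher, and genes specific to mitochondria in 22 of 29. Without control soma 4 these counts were 41 of 50, 22 of 27, 39 of 48 and 24 of 29 lower, in the same order, where 20.1% of all genes tested were lower. Values ran from -1.80 to 0.35, and 12 members had every stretched library below every control library, where 2.27% of all genes tested did so. No member had every stretched library above every control library (1.84% of all genes).

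**Figure D2:**
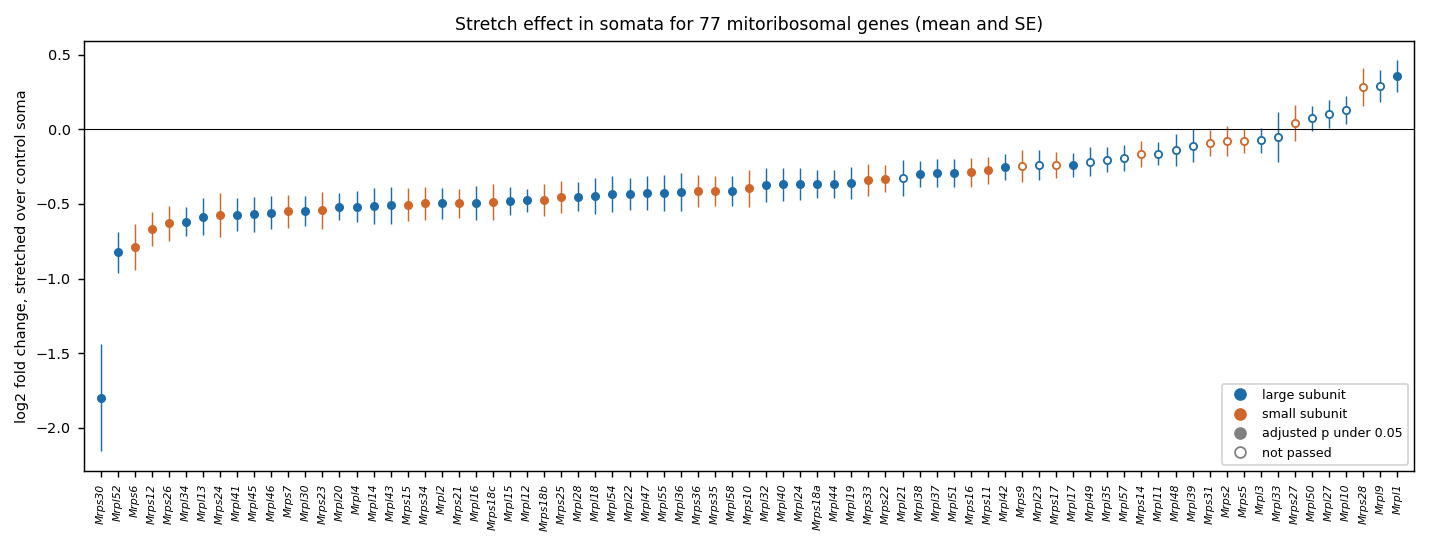
Log2 fold change, stretched over control soma, for the 77 members tested, in order of size, with bars for the standard error. The values run from -1.80 for Mrps30 to 0.35 for Mrpl1, and 70 of the 77 lie below 0.

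The lowest value belonged to Mrps30 (chr13:118378381-118387252, minus strand, mm10), which despite its name is a large-subunit protein with no bacterial counterpart. It measured 5.57 CPM at the lowest, 25.7 at the median and 29.7 at the highest in control somata, and 3.62, 7.11 and 9.48 CPM in stretched somata. The groups overlapped only through control soma 4, which held the 5.57 CPM. The log2 fold change was -1.80 (SE 0.36, edgeR adjusted p = 0.00674), and -2.01 without control soma 4. Of its exon bases, 9.3% are shared with B430218F22Rik on the other strand, and the strand setting of the counting is not given in the sources used here, so reads of the pair cannot be told apart there.

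Mrpl52 (chr14:54426909-54429756, plus strand), a large-subunit protein specific to mitochondria and the first sequence shown above, was 21.2, 32.1 and 38.9 CPM at the lowest, median and highest in control somata and 16.03, 18.2 and 20.9 CPM in stretched somata. No stretched library reached the lowest control. Its log2 fold change was -0.82 (SE 0.14, edgeR adjusted p = 0.00335). Mrpl34 (chr8:71464959-71465747, plus strand), the counterpart of bacterial L34, also did not overlap, with 41.6, 52.2 and 53.8 CPM in controls against 29.4, 33.7 and 38.9 CPM after stretch (log2 fold change -0.62, SE 0.10, edgeR adjusted p = 0.00293). Mrpl41 (-0.57) and Mrpl45 (-0.57), mitochondrial additions to the large subunit of which Mrpl45 sits near the exit tunnel and the inner membrane, fell with overlapping groups. Mrpl13 (-0.59), the counterpart of bacterial L13, did so too.

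In the small subunit the lowest values were those of Mrps6 (-0.79), Mrps12 (-0.67), Mrps26 (-0.63) and Mrps24 (-0.57). Mrps12 (chr7:28739641-28741820, minus strand), the counterpart of bacterial S12, which lines the decoding centre, was 69.1, 93.1 and 103.6 CPM in control somata and 53.0, 56.7 and 69.9 CPM in stretched somata, so the groups met only at the edge (SE 0.11, edgeR adjusted p = 0.00356). Mrps26 (chr2:130563742-130568695, plus strand), a small-subunit protein specific to mitochondria, was 72.0, 99.2 and 123.7 CPM against 53.8, 66.0 and 73.5 CPM (SE 0.11, edgeR adjusted p = 0.00434). Mrps6, the counterpart of bacterial S6, shares 19.9% of its exon bases with Slc5a3 and a predicted gene on the same strand, and Mrps24, the counterpart of bacterial S3, shares 15.4% with Urgcp. Reads in such stretches go to no gene when counted as ambiguous, so both levels are uncertain.

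Members chosen for a known place in the ribosome, or for another known role, are given by it. Of those at the L12 stalk and its base, which recruit translation factors, Mrpl12 fell, with 135.2, 139.7 and 143.4 CPM in controls against 92.3, 101.6 and 122.3 CPM after stretch and no overlap (log2 fold change -0.47, SE 0.08, edgeR adjusted p = 0.00316). Mrpl11, at the stalk base, did not pass (-0.16, edgeR adjusted p = 0.129). Near the peptidyl transferase centre, Mrpl2 fell (-0.50, edgeR adjusted p = 0.00733), while Mrpl3 did not pass (-0.07, edgeR adjusted p = 0.540). At the exit tunnel Mrpl23 did not pass (-0.24, edgeR adjusted p = 0.0970). Mrpl44, which carries an RNase III-like fold, fell without overlap between the groups (-0.37). Mrpl58, a peptidyl-tRNA hydrolase that became part of the large subunit, fell with overlapping groups (-0.41). The 3 counterparts of bacterial S18 fell alike in sign, by 0.37 for Mrps18a, 0.47 for Mrps18b and 0.49 for Mrps18c on the log2 scale. Mrps18b shares 30.5% of its exon bases with a predicted gene on the other strand. Mrps18c shares 23.2% with a predicted gene on the same strand, so both levels are uncertain. In the small subunit head and body, Mrps7 fell (-0.55) and Mrps2 did not pass (-0.08). Mrps36, which is known as a component of the 2-oxoglutarate dehydrogenase complex and is given no place in the ribosome here, fell (-0.42). Of the 16 members named for their role, Mrps12, Mrps28 and Mrps30 included, 11 fell, and all 11 also fell without control soma 4. With offsets for transcript length and GC content 3 of the 11 passed (Mrpl58, Mrps12 and Mrps30). The other 8 did not, namely Mrpl2, Mrpl12, Mrpl44, Mrps7, Mrps18a, Mrps18b, Mrps18c and Mrps36, with values of -0.32 for Mrps7 to 0.0123 for Mrps18a. Mrpl11 (-0.21) and Mrpl23 (-0.33) passed without control soma 4, and Mrpl3 (-0.28) with the offsets.

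Mrpl1 (chr5:96209493-96266727, plus strand), the mobile L1 stalk protein, was the 1 member that rose. It was 19.9, 22.1 and 29.6 CPM at the lowest, median and highest in control somata and 27.1, 29.7 and 32.8 CPM in stretched somata, where the highest control was control soma 4. The log2 fold change was 0.35 (SE 0.11, edgeR adjusted p = 0.0272), and its adjusted p rose above 0.05 when 1 of 5 libraries was left out (control soma 1, 2 or 6, or stretched soma 5 or 6, at 0.0534 to 0.0632) and with offsets for transcript length and GC content (0.19, edgeR adjusted p = 0.167). Among those that did not pass, Mrps28, a small-subunit protein related to bacterial S1, had a log2 fold change of 0.28 (edgeR adjusted p = 0.119), and passed as higher with the offsets (0.64) and without control soma 4 (0.33).

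Without control soma 4, 63 members fell and 3 rose, against 20.1% of all 15857 genes tested lower and 2889 higher. In those libraries 46 members had every stretched library below every control, as did 9.53% of the 15632 genes tested with every library. All 54 members called with every library were among the 63. The soma libraries also split by the level of Eif2s3y, a Y-linked gene, into 6 with a high and 6 with a low level, each side holding 3 controls and 3 stretched libraries. On the high side alone 54 members were lower (12.7% of all genes), and on the low side, which holds control soma 4, no gene passed with edgeR (0.0%), with 23 members and 17.4% of all genes at an unadjusted p under 0.05. The low side without control soma 4 gave 30 members lower (14.2% of all genes), all among the 54. Without both soma libraries numbered 4, 61 members were lower (18.4% of all genes).

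Transcript length moved with the soma result. Over 15619 genes with a length, Spearman's rho of length and log2 fold change was 0.482, and over the 77 members it was 0.344; genes in 1 set of libraries are not independent. The 77 members are short, with a median of 1316 bases against 3063 for all genes tested. Of 52 members of up to 2000 bases, 41 fell, and of 25 longer ones, 13 fell and 1 rose. With offsets fitted per library to length and GC content over all genes, 19 members were lower and 4 higher, and their median was -0.14. Of all 15632 genes tested, 8.48% were lower and 737 higher in that fit. The 19 lower members hold 14 of the 54. With offsets 2 of the 52 shorter members and 17 of the 25 longer ones were lower, and rho over the members turned to -0.463 (-0.016 over all genes), so the offsets left longer members low and shorter ones near 0. Offsets from the median transcript length gave 22 lower (8.42% of all genes) and 4 higher (802 of 15632 genes). Mrps30 (-1.91), Mrps26 (-0.84), Mrpl45 (-0.46), Mrpl52 (-0.44) and Mrps12 (-0.27) passed with the offsets as well. The other 5 of the 10 lowest (Mrps6, Mrpl34, Mrpl13, Mrps24 and Mrpl41) did not, nor did Mrpl12 (-0.16, edgeR adjusted p = 0.191). Whether length itself, RNA quality or library preparation plays a part was not tested.

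**Figure D3:**
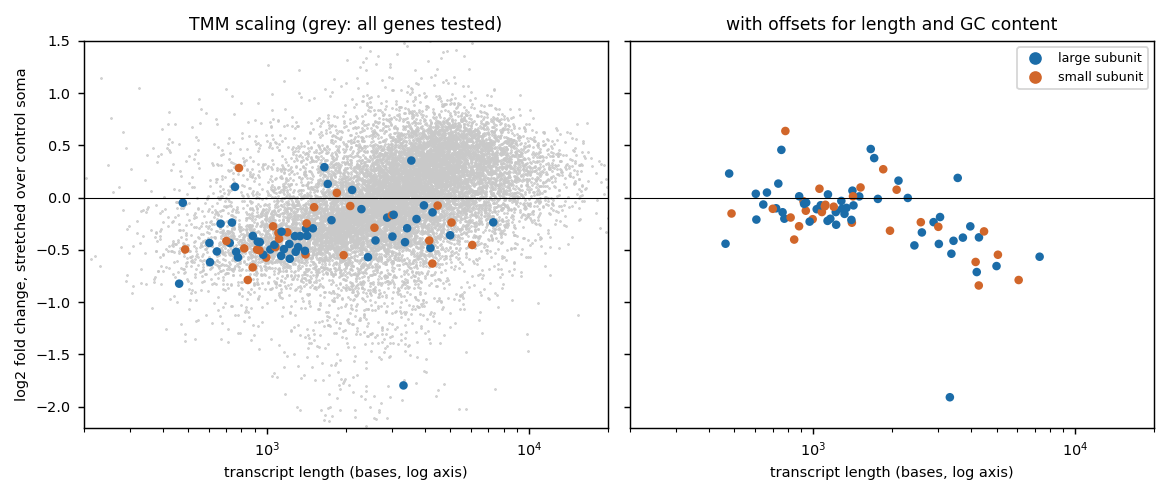
Log2 fold change, stretched over control soma, against transcript length (bases, log axis), for all genes tested (grey, left) and for the 77 members coloured by subunit, without (left) and with (right) offsets for length and GC content. Shorter members tend to lie lower on the left (rho 0.344 over members) and longer members on the right (rho -0.463), while Mrps30, of 3319 bases, is lowest in both.

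Across the fits, 6 members were called lower in every one of 27 (the fit reported here and every alternative other than the low Eif2s3y side). They were Mrpl52, Mrpl45, Mrps12 and Mrps26, together with Mrpl15, the counterpart of bacterial L15, and Mrps25, a mitochondrial addition to the small subunit. The last 2 were picked after their values were seen. How many of all genes were called lower in every fit was not counted, and the fits share libraries, so the 6 are a description only. Mrps25 shares 69.8% of its exon bases with Nr2c2 on the other strand. With the strand setting not given, its level is uncertain.

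Other genes that act with the mitoribosome were called at shares to be read against the 13.9% lower and 11.2% higher of all genes tested. Of 5 mitoribosomal proteins with other symbols, Gadd45gip1 (-0.48), Aurkaip1 (-0.46) and Dap3 (-0.35) fell and Ptcd3 rose (0.33). Of 14 mitochondrial translation factors tested, 3 fell, among them the release factor Mtrf1l (-1.07) and the elongation factor partner Tsfm (-0.44), and the elongation factor Gfm1 rose (0.30). Of 20 mitochondrial aminoacyl-tRNA synthetase and amidotransferase genes, Yars2 (-1.47) and Fars2 (-0.40) fell and none rose. Of 28 assembly factors and ribosomal RNA modifiers, 7 fell and 2 rose. Spg7 (-0.83), a subunit of the protease that matures Mrpl32, and Ngrn (-0.65) were lowest, and Gtpbp10 (0.54) and Mterf3 (0.38) were higher. Of 10 genes of mitochondrial transcription and genome maintenance, Polg2 fell (-0.52), and Ssbp1 (0.40) and the helicase Twnk (0.35) rose. The medians of these lists were -0.35, -0.02, 0.05, -0.24 and -0.02, in the order given, beside -0.03 for all genes tested. Of the 81 cytosolic ribosomal protein genes tested, which are also short, 70 fell and none rose (median -0.59). Of 8 mitochondrially encoded protein genes tested, none fell and 1 rose (median 0.08). Without control soma 4 the calls were 3 lower and 1 higher of the 5, 5 and 2 of the 14 translation factors, 4 and 4 of the 20 synthetase genes, 10 and 2 of the 28 assembly genes, 1 and 2 of the 10 genome genes, 76 and 0 of the 81, and 1 and 1 of the 8. In that fit 3183 of all 15857 genes tested were lower (20.1%) and 2889 higher. With offsets for length and GC content no translation factor and no genome gene passed, and 42 of the 81 cytosolic genes were lower. In that fit 13.2% of all genes tested passed, and 8.48% were lower.

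Levels per transcript length in control somata spanned the members widely. The highest mean values were those of Mrpl42 (233.6 CPM per 1000 bases), Mrpl28 (229.3), Mrpl20 (184.3), Mrpl41 (148.4) and Mrpl30 (147.8), all of the large subunit. Length here is that of the longest coding transcript, and the order depends on that choice. The longest is 764 bases for Mrpl20 (median transcript 494) and 969 for Mrpl30 (median 662). Mrpl47 (6.46) and Mrpl1 (6.43), counterparts of bacterial L29 and L1, were the lowest apart from Mrpl53. Mrpl47 shares 24.2% of its exon bases with Actl6a and Ndufb5 on the other strand. Mrpl53 was near 0 (0.0216), with counts in 2 of 12 soma libraries and 1 of 11 axonal libraries. It shares 88.0% of its exon bases with a predicted gene on the same strand, so its level cannot be read from these counts, and it was the member not tested in somata. Mrpl28, the counterpart of bacterial L28, had the most counts of all members in each of the 12 soma libraries.

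In axonal libraries the members were detected unevenly. Control axons 1, 2, 3, 5 and 7 had counts for 41, 42, 52, 72 and 42 of the 78, a mean of 49.8 ± 13.2 (SD, n = 5). Stretched axons 1, 2, 4, 5, 6 and 8 had counts for 31, 45, 58, 53, 60 and 76, a mean of 53.8 ± 15.1 (SD, n = 6). Thinning every library to the smallest total of 16369153 counts gave means of 49.6 ± 12.8 and 53.7 ± 15.4 (SD, n = 5 and 6). The share of counts from members was 0.566% ± 0.0775 (SD, n = 5) in control and 0.542% ± 0.0461 (SD, n = 6) in stretched axons, and the ranges overlapped.

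**Figure D4:**
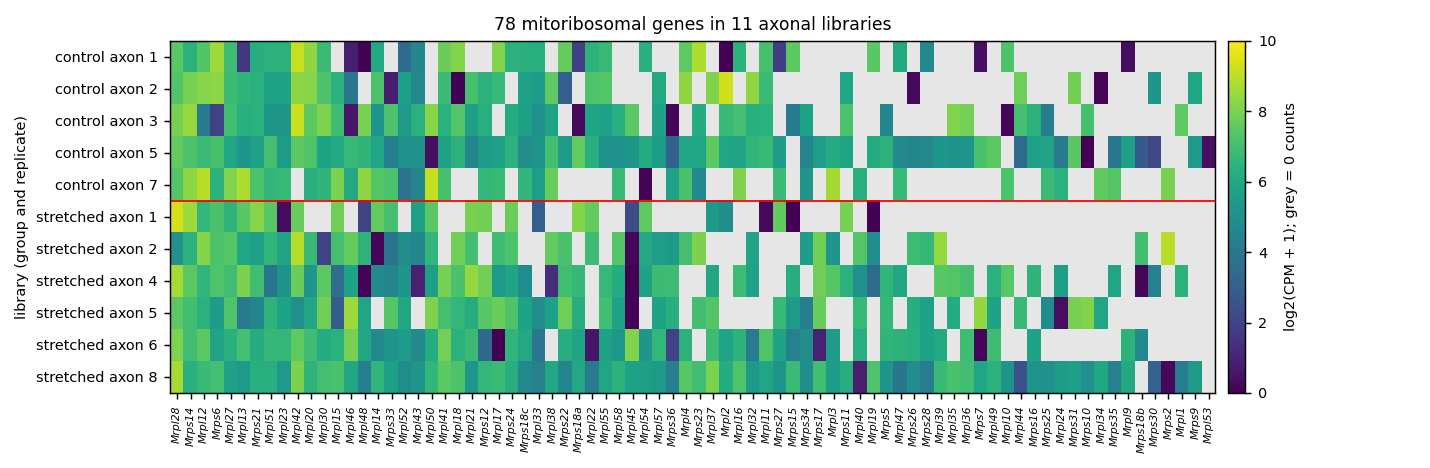
Level of the 78 members (columns) in the 11 axonal libraries (rows) as log2(CPM + 1), with grey for 0 counts. The libraries differ in which members are at 0, and the number with counts runs from 31 to 76.

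Of the 858 member values in axonal libraries, 286 were 0 (33.3%), 27 were 1 to 10 counts (3.15%) and 416 were above 1000 counts (48.5%). A member was thus mostly either at 0 in an axonal library or counted deeply in it. All 78 had counts in at least 1 axonal library, 57 in 6 or more, and 9 in all 11. Those 9 were Mrpl12, Mrpl13, Mrpl23, Mrpl27, Mrpl28, Mrpl51, Mrps6, Mrps14 and Mrps21. The median number of axonal libraries with counts was 8 for large-subunit and 6 for small-subunit genes. The member with the most counts changed between axonal libraries. It was Mrpl28 in 4 of them, Mrpl42 in 2, and Mrpl2, Mrpl50, Mrps2, Mrpl46 or Mrpl45 in the others.

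Members had counts in a larger share of axonal libraries than the protein-coding genes of a like soma level. The members of 10 to 30 CPM in somata had counts in 59.4% of axonal libraries on average (13 genes), against 29.3% for all protein-coding genes of that level. At 30 to 100 CPM the shares were 66.5% (57 genes) and 49.2%, and at 100 CPM or more 89.6% (7 genes) and 76.3%. These are descriptions over the same 11 libraries, with no test. The genes were not matched for transcript length, and the members are shorter (median 1316 bases, against 3063 for all genes tested in somata). Over the members, the number of axonal libraries with counts had a Spearman's rho of 0.389 with the soma level and of -0.332 with transcript length, so shorter members were detected in more libraries.

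**Figure D5:**
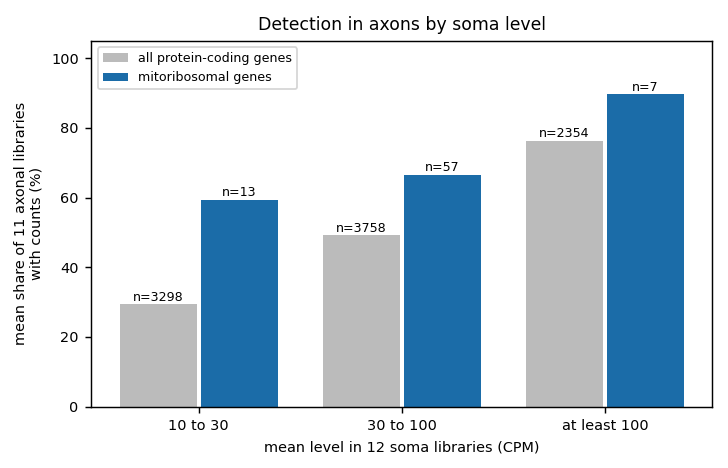
Mean share of the 11 axonal libraries with counts (percent), by mean level in the 12 soma libraries (CPM), for the members and for all protein-coding genes. The members reach 59.4%, 66.5% and 89.6%, against 29.3%, 49.2% and 76.3%.

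Stretch changed no member detectably in axons. Of 4947 genes tested with edgeR none passed (0.0%), and 46 had an unadjusted p under 0.05 (0.93%). Of the 64 members tested none passed, and none had an unadjusted p under 0.05. DESeq2 called 18 genes (0.364%) and limma voom 10 (0.202%), with no member among them. At an unadjusted p under 0.05, limma voom had 7 members (386 of 4947 genes) and DESeq2 none. At that limit edgeR had 4 members without control axon 5 (270 of 5219 genes). It had 1 without control axon 7 (99 of 5937) and 1 with no filter (4333 of 16409). The median log2 fold change with edgeR was -0.04 over the members and 0.02 over all genes tested, and with limma voom 1.05 and 0.89. The biological coefficient of variation was 2.39, against 0.24 in somata, and on simulated axonal counts with this spread none of the genes changed by 1 or 2 on the log2 scale was recovered, so changes of that size were not detectable here.

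The smallest unadjusted p-values among members in axons belonged to Mrps17 (0.273), Mrpl39 (0.276) and Mrps26 (0.303). Mrps17, the counterpart of bacterial S17, was at 0, 0, 0, 48.2 and 0 CPM in control axons, and at 0 at the lowest, 164.0 at the median and 230.3 at the highest in stretched axons. Mrpl39, a mitochondrial addition to the large subunit, was at 0, 0, 0, 36.8 and 0 CPM in control axons, and at 0, 88.5 and 339.5 CPM in stretched axons. Counts were thus found in 1 of 5 control libraries for both, and in 5 of 6 and 4 of 6 stretched libraries. Neither passed, with an edgeR adjusted p of 1.00. Mrps30 had counts in 2 of 5 control and 2 of 6 stretched axons, too few to enter the test.

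Between compartments, the median difference of the members lay nearer to 0 than that of all genes tested. The axon and soma comparisons use the same libraries as the stretch comparisons. In control cultures 35.3% of 14728 genes passed, 34.4% lower in axons and 0.856% higher. Of 77 members, none was lower and 1, Mrpl27, was higher; the median log2 difference was -0.25 over the members and -1.40 over all genes tested. In stretched cultures 29.3% of 14466 genes passed, 28.4% lower and 0.843% higher. Of 77 members none was lower and 1, Mrpl21, was higher, with a median of -0.02 against -1.13. In control and stretched cultures, the mitoribosomal proteins with other symbols had medians of -0.113 and -0.164. Translation factors had -0.52 and -0.862, and synthetase genes -2.615 and -1.44. Assembly genes had -1.358 and -1.433, and genome genes -5.655 and -0.522. Cytosolic ribosomal protein genes had 0.833 and 0.908, and mitochondrially encoded genes 1.387 and 0.881. Genes were not matched for soma level. With limma voom and quality weights, 44 members passed in control cultures (43 lower in axons), where 66.5% of all genes passed, and 33 in stretched cultures (32 lower), where 69.7% did, and the medians were -4.39 over the members (-6.64 over all genes) and -3.10 (-6.40). With edgeR, leaving out control axon 5, 7 or 3 gave 8, 3 and 2 members lower in control cultures. Of all genes, 53.6%, 39.4% and 39.9% passed in these fits, in either direction. Leaving out stretched axon 2 or 8 gave 1 each in stretched cultures, where 33.2% and 43.3% of all genes passed. Both the absence of lower calls and the size of the medians thus depended on the tool or the libraries used.

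Mrpl27 (chr11:94653767-94660089, plus strand), whose bacterial counterpart reaches the peptidyl transferase centre, measured 117.8, 114.9, 124.4, 59.0 and 273.2 CPM in control axons 1, 2, 3, 5 and 7. In control somata it was 29.1 at the lowest, 32.1 at the median and 37.0 at the highest, so every axonal value lay above every soma value. The log2 difference was 1.80 (SE 0.57, edgeR adjusted p = 0.0283). The adjusted p was 0.0558 to 0.0725 when control axon 7 or any 1 control soma library was left out, and 0.106 with no filter on low counts. In stretched axons it was 52.3, 106.4 and 162.7 CPM at the lowest, median and highest, against 32.4, 35.8 and 43.1 CPM in stretched somata, again without overlap, but did not pass (1.09, edgeR adjusted p = 0.0996). Of its exon bases, 7.6% are shared with Eme1 on the other strand.

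Mrpl21 (chr19:3282901-3292837, plus strand), the counterpart of bacterial L21, measured 36.8 CPM at the lowest, 120.6 at the median and 344.7 at the highest in stretched axons, and 27.1, 27.9 and 30.6 CPM in stretched somata. Every stretched axon lay above every stretched soma library (log2 difference 1.92, SE 0.55, edgeR adjusted p = 0.0177, and 0.0519 with no filter). In control axons it was 0, 134.9, 50.4, 22.8 and 0 CPM, which spans the control soma range of 25.4 to 42.4 CPM. Mrps14, the counterpart of bacterial S14, was at 84.8, 244.3, 350.8, 147.8 and 317.5 CPM in control axons and 83.0 to 109.9 CPM in control somata (1.01, edgeR adjusted p = 0.161). Mrpl33 was at 76.6, 45.6, 32.1, 36.3 and 48.0 CPM in control axons, all above the highest control soma value of 22.4 CPM, and did not pass (1.34, edgeR adjusted p = 0.123). DESeq2 called Mrps14 and Mrpl33 higher and Mrpl28 lower in control axons, besides Mrpl27, where it called 36.5% of all genes.

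The difference between the stretch effect in axons and in somata was tested over all 4 groups. It passed for 21.8% of 16113 genes and for none of the 77 members, and DESeq2 (9.1% of genes) and limma voom (0.0%) called no member either. At an unadjusted p under 0.05, edgeR and DESeq2 had no member (4070 and 1866 of all 16113 genes). Limma voom had 11 members at that limit (424 of 16113 genes). With edgeR, 7 members passed with a higher interaction without control axon 5, 3 without 7 and 2 without 3, and 1 with a lower one without stretched axon 2 or 8. Of all genes, 27.6%, 21.2%, 21.4%, 22.3% and 23.8% passed in these fits, in the order given. With every library the smallest unadjusted p-values (edgeR) were those of Mrpl28 (0.125), Mrps18b (0.146) and Mrps26 (0.169). The fall of members in stretched somata was therefore not shown to be particular to somata. Mrpl28 was 175.0, 155.8, 248.1, 192.9 and 160.5 CPM in control axons and 32.4, 331.2 and 659.0 CPM at the lowest, median and highest in stretched axons, against 227.8, 244.3 and 264.7 CPM in control and 162.9, 176.7 and 241.9 CPM in stretched somata. Its interaction was 1.118 on the log2 scale (edgeR adjusted p = 0.443).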

How the data were processed

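The authors deposited, for each of 23 libraries, a table of whole-number read counts for 55487 Ensembl gene IDs. Libraries were made from polyadenylated RNA with a low-input amplification kit and unique molecular identifiers, and read in pairs, per the labels' protocols. Per the submitters' processing notes, FastQC 0.11.9, MultiQC 1.12, fastp 0.20.1, STAR 2.7.08a, HTSeq 0.13.5 and the build mm10 were used. The annotation release, the strand setting and any use of the identifiers are not given in the sources used here. Rows of reads with no unique place (5.43% to 13.4%), an ambiguous gene (4.37% to 5.94%) or no gene (3.18% to 7.94%, each of all reads in the table) were left out, so overlapping genes may be undercounted.

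Symbols were matched by ID for 55141 IDs. Positions, exon overlaps and the longest coding transcript came from GENCODE M21 (GRCm38, the same assembly as mm10), promoters from RefSeq. Fits used edgeR 4.0.16 in R 4.3.3 (filterByExpr, TMM, robust quasi-likelihood test, Benjamini-Hochberg threshold 0.05), each pair of groups on its own libraries and the interaction on all 4 groups. Alternatives were other scalings, no filter, DESeq2 1.42.0, limma 3.58.1, a block for the replicate number, offsets for length and GC content (mgcv 1.9.3), the Eif2s3y split, and leaving out each library. The Eif2s3y low side without control soma 4, offsets without it, leaving out both soma libraries numbered 4, and offsets by median transcript length were chosen after seeing the data. Tested on simulated data over 15401 soma genes, the fit recovered 73.2% of changes of 1 and 95.6% of changes of 2 on the log2 scale, with 7 false calls.

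The members and lists were chosen with earlier results of these data known. Named genes were the called members with the lowest and highest fold changes in each comparison (or the smallest p-values), the highest and lowest levels per length, those in most axonal libraries and a list fixed by role; of the other lists, up to 2 called genes in each direction.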

Additional observations from a re-analysis of the deposited data

Results flagged for a closer look

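Of 82 groups of 5 or 6 libraries examined for a single library far from the others, 8 were marked, where chance marks about 1 in 20 of independent groups. The members vary together in somata (76.9% of their variance on the first principal component). The groups are thus not independent, and the 8 cannot be set against that rate. All 8 came from the 2 soma libraries numbered 4. In control soma 4 the share of counts from members was 0.413%, against 0.484% to 0.525% in the other control somata. The same library held Mrpl34 at 41.6 CPM (others 49.6 to 53.8), Mrps36 at 22.9 CPM (others 29.8 to 33.1) and Mrpl1 at 29.6 CPM (others 19.9 to 22.6). For each of these the value lay on the side of the stretched somata. Stretched soma 4 held Mrpl28 at 241.9 CPM (others 162.9 to 178.4), Mrps18a at 116.6 CPM (others 86.4 to 95.4), Mrpl41 at 99.4 CPM (others 72.2 to 81.2) and Mrpl2 at 50.2 CPM (others 40.0 to 43.5). For these 4 genes the value lay on the side of the control somata. Leaving out both libraries gave 61 members lower in stretched somata, among them all 54 called with every library.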

How the results depend on the processing

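For stretch in somata, 55 members were called in all (54 lower), where 25.1% of all genes were called. Percentages in brackets are of all genes. The count was 34 with a replicate block (33 lower, 20.5%), 23 with length and GC offsets (13.2%) and 15 with both (11.1%). It was 33 with the offsets less control soma 4 (23.9%) and 26 with offsets by median length (13.5%). The low Eif2s3y libraries gave 0 (0.0%), and these less control soma 4 gave 31 (27.5%). Leaving out 1 library gave 41 to 66, the highest without control soma 4, with 16.8% to 38.3% of all genes called. Same-numbered soma libraries correlated at 0.091 to 0.233, so the numbers were not taken to pair them. For axon against soma, control cultures gave 1 call, higher in axons, 0 with no filter, 4 with DESeq2 (1 lower), 44 with limma voom (43 lower), 3 with the block, all lower, and 0 to 10 with 1 library left out (10 without control axon 5, 8 of them lower, 4 without 7, 3 of them lower, 3 without 3, 2 of them lower, 2 without 1, both higher, and 0 without any 1 control soma). The shares of all genes called were 35.3%, 35.5%, 36.5%, 66.5%, 35.9% and 32.1% to 53.6%, in the same order. Stretched cultures gave 1 call, higher in axons, 2 with total counts, 0 with no filter, 2 with DESeq2, 33 with limma voom (32 lower), 4 with the block, all lower, and 1 to 3 with 1 library left out (3 without stretched axon 1 or 8, 2 without 2, with 1 lower without 8 or 2). The shares of all genes called were 29.3%, 29.9%, 35.1%, 30.5%, 69.7%, 53.1% and 28.7% to 43.3%, in the same order. With the block the medians were -4.21 over members and -8.10 over all genes in control cultures and -1.45 and -8.46 in stretched ones, Mrpl27 was at 1.31 in control cultures (edgeR adjusted p = 0.684) and Mrpl21 at 1.62 in stretched cultures (0.489). The interaction gave 0, with 6 genes (0.0372%) called under the block, and 0 to 7 with 1 library left out (7 without control axon 5, 3 without 7, 2 without 3, 1 without stretched axon 2 or 8). Of all genes, 21.8% were called with every library and 20.5% to 27.6% with 1 left out. In axons stretch gave no member call under any alternative run.

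Of the 70 members below 0 in somata, 12 were above 0 with length and GC offsets, 11 with the block added, 11 with the offsets less control soma 4 and 8 with offsets by median length. Of the members named here, with length and GC offsets the log2 fold change was 0.0301 for Mrpl21, 0.134 for Mrpl23, 0.230 for Mrpl33, 0.048 for Mrpl42, 0.0123 for Mrps18a and 0.0753 for Mrps2, and with the replicate block added 0.0495, 0.166, 0.344, 0.0379, 0.0194 and 0.0675. With the offsets less control soma 4 it was 0.104 for Mrpl23, 0.257 for Mrpl33, 0.0654 for Mrpl42, 0.0238 for Mrps18a and 0.0683 for Mrps2. With offsets by median length it was 0.0054 for Mrpl21, 0.0824 for Mrpl23, 0.190 for Mrpl33 and 0.0148 for Mrps2. Mrpl33 was also at 0.103 with the block, 0.221 in the low Eif2s3y libraries and 0.256 in these less control soma 4. With 1 library left out, Mrpl33 ran from -0.1198 to 0.0726 (above 0 without control soma 1 or 3 or stretched soma 4) and Mrps2 from -0.1273 to 0.0029 (above 0 without control soma 5). The cause of these changes was not tested. Zeros, 33.3% of the member values, limit the axonal comparisons.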
